A study of Mus musculus with 12 samples.

Results

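Id1, Id2, Id3, Id4, Hes1, Hes5, Bmp4, Axin2 and Lef1 were followed in RNA-Seq of sorted mouse oligodendrocytes. They belong to the BMP, Notch and Wnt pathways, which are known to hold back oligodendrocyte differentiation, and each was taken by its gene symbol. All 9 were among the 55376 symbols of the count table, and all 9 passed the filter on low values that 17716 symbols passed. Each symbol was matched to 1 gene of the GENCODE M21 annotation.

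Oligodendrocytes, the myelin-forming glia of the CNS, differentiate when basic helix-loop-helix (bHLH) factors such as OLIG1 and OLIG2 and their E-protein partners activate myelin genes. BMP ligands act through receptor serine kinases and SMAD proteins to induce Id genes, whose products lack a DNA-binding region and sequester E proteins and OLIG factors, while Notch receptors act through RBPJ to induce Hes repressors. Canonical Wnt signaling stabilizes β-catenin, which joins TCF/LEF factors on targets such as Axin2. None of these pathways is private to oligodendrocytes: Id1 is also a target of the endothelial BMP receptor ALK1, Axin2 and Lef1 report Wnt signaling at the blood-brain barrier, and Hes5 is expressed by astrocytes and neural progenitors.

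The cells were single, live, CD45- O1+ cells sorted from brains of C57BL/6 mice at postnatal day 40, where O1 is a surface galactolipid of maturing oligodendrocytes and CD45 a leukocyte antigen. There were 4 samples from WT mice, 4 from Cnp-Cre Jab1fl/fl mice and 4 from p21-/- Cnp-Cre Jab1fl/fl mice (double mutants), and each sample pooled the cells of 2 brains. In both mutant genotypes a Cre recombinase under the Cnp1 promoter, which is active from the late precursor stage on and also in Schwann cells, removes floxed Jab1 (symbol Cops5), the catalytic subunit of the COP9 signalosome. Double mutants lack the CDK inhibitor p21 (symbol Cdkn1a) in every cell of the body. Mice lacking p21 alone were not among the samples, so an effect of p21 loss by itself cannot be told apart from one that needs Jab1 loss.

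The sequence upstream of a start site is where RBPJ, SMAD and TCF/LEF proteins could act, and 7 of the 9 genes had a RefSeq promoter window (GRCm38.p6), which runs from 250 bases before to 50 bases after the start. Windows of Id1 and Hes1 were not used here. The 250 bases before the start are shown for the 3 genes whose levels separated Cnp-Cre Jab1fl/fl from WT samples, and for Hes5, whose window held the Notch motif at 2 positions. Each is written 5′ to 3′ on the strand of the gene. Capitals mark TGGGAA or its complement TTCCCA, the RBPJ motif, in Hes5, and GGCGCC, a SMAD motif, in Lef1, whose RBPJ motif began at 38 after the start. The motif sought for capitals in Bmp4 and Axin2 was CTTTGA or TCAAAG, that of TCF/LEF, which these letters did not hold.
Hes5, chr4:154960673-154960922, plus strand: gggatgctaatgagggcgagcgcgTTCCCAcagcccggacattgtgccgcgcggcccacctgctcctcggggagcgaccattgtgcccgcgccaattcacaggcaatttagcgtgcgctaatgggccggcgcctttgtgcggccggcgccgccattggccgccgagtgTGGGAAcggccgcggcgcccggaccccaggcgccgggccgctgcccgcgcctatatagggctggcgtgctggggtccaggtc
Bmp4, chr14:46390670-46390919, minus strand: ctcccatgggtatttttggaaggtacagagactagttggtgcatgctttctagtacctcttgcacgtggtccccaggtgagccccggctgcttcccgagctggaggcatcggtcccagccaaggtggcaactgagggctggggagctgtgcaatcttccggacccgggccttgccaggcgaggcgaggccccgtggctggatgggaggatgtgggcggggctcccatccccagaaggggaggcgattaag
Axin2, chr11:108920099-108920348, plus strand: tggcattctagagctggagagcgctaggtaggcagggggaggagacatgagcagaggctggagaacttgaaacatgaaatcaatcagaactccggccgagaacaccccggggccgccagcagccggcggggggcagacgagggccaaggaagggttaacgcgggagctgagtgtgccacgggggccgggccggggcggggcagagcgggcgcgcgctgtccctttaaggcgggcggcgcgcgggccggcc
Lef1, first of 4 starts, chr3:131110047-131110296, plus strand: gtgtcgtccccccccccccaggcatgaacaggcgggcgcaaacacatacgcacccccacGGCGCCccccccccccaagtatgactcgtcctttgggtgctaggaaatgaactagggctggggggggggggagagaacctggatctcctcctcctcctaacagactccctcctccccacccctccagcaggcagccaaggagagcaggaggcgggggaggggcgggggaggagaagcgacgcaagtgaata
The RBPJ motif began at -226 and -82 from the Hes5 start, once on each strand, and the SMAD motif began at -191 from this Lef1 start and at -123, -106, -69 and -54 in Hes5. Of the 7 genes with a window, taking the first start of each, 3 held the RBPJ motif (Id4, Hes5, Lef1), 4 the SMAD motif (Id2, Id4, Hes5, Lef1), 1 the TCF/LEF motif (Id4) and 2 the Hes-binding N-box CACNAG (Id2, Id4). The TCF/LEF motif of Id4 began at 35 after the start. The last of the 4 Lef1 starts, left out of this count, had the TCF/LEF motif at -180 and -120. Among all 32851 windows of this length, 25.6% held the RBPJ motif, 11.9% the SMAD motif, 16.0% the TCF/LEF motif and 42.5% the N-box, on either strand. These matches describe letters only. Windows of Id3, Bmp4 and Axin2 held none of the 4 motifs.

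Total counts were 61485556 to 153495112 per sample, and the lowest count of any of the 9 genes in any sample was 265, for Bmp4, so counting error was small beside the spread between samples. Mature oligodendrocyte markers were present in every sample, and the lowest of 12, Cldn11, had a mean of 164 CPM (counts divided by library size, with TMM factors). Their summed level was 47713 to 112423 CPM in WT, 9286 to 36359 CPM in Cnp-Cre Jab1fl/fl and 17399 to 55050.3 CPM in double mutants. Of 15 marker lists, summed levels of 8 lay above the WT range in all 4 Cnp-Cre Jab1fl/fl samples (endothelial, mural, microglia, neuron, T cell, B cell, choroid plexus, ependymal) and 1 below it (mature oligodendrocyte). The T cell and B cell sums rest on little: 1 and 2 of 8 genes passed the filter, and the B cell sum was carried by Ebf1 (34.4 CPM on average), which mural cells also express, while the B cell gene Ms4a1 averaged 0.00777 CPM. Double-mutant replicate 3 stood apart with 16288 CPM of microglia markers, against 333 to 1743 CPM in the other double mutants and 91.8 to 255 CPM in WT. For Cops5, samples of Cnp-Cre Jab1fl/fl (66.9 ± 18.0 CPM, SD, n = 4) and WT (103 ± 39.7 CPM) overlapped (log2 fold change -0.62, adjusted p = 0.349 by edgeR). Double mutants were at 58.6 ± 21.5 CPM and also overlapped with WT (log2 fold change -0.82, adjusted p = 0.424 by edgeR). By qPCR, the study reports a significant loss of Cops5 mRNA in sorted O1+ cells of Cnp-Cre Jab1fl/fl mice. It also reports less JAB1 protein in their optic nerves. Cdkn1a was at 16.0 to 85.3 CPM in WT, 379 to 637 CPM in Cnp-Cre Jab1fl/fl and 64.7 to 103 CPM in the samples labelled as double mutants, whose mean was 2.11-fold above that of WT (unadjusted p = 0.0474, adjusted p = 0.394 by edgeR). Against WT, loss of p21 is thus not visible in these counts. Against Cnp-Cre Jab1fl/fl, all 4 samples labelled as double mutants were lower (log2 fold change -2.35, unadjusted p = 1.55e-05, adjusted p = 0.0916 by edgeR). The study reports no detectable Cdkn1a by qPCR in sorted double-mutant oligodendrocytes. Counts over a whole gene do not separate deleted exons from the others, so genotypes, double mutants included, are named by their labels throughout.

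Expression of the 9 genes in WT cells spanned a wide range. Levels between genes were compared as CPM per kilobase of exons. In WT samples Id2 was at 205 ± 102 CPM per kilobase (SD, n = 4), followed by Id3 (158 ± 67.7), Hes5 (83.5 ± 37.8), Id1 (43.1 ± 17.7), Id4 (42.6 ± 15.3), Hes1 (29.2 ± 20.5), Lef1 (2.67 ± 1.12), Bmp4 (2.31 ± 0.48) and Axin2 (1.34 ± 0.73). Between neighbors in this order the WT samples overlapped, except between Hes1 and Lef1. The Id and Hes genes thus formed an upper group and Bmp4 and both Wnt targets a lower one. These are levels of whole samples, and WT samples also held astrocyte markers at 6755 to 16514 CPM. WT replicate 5 had the most mature oligodendrocyte markers (112423 CPM) and the lowest WT level of every gene but Bmp4. Which cells the levels came from was not tested. Over all 12 samples, mutants included, the mean CPM of Id2 was at the 99.1 percentile of the 17716 genes and that of Bmp4 at the 42.2 percentile. In Cnp-Cre Jab1fl/fl cells Id3 came first (326 ± 118 CPM per kilobase, SD, n = 4), before Id2 (235 ± 58.3) and Id1 (162 ± 92.0), and no pair of neighbors in the order was apart. In double mutants the first 3 genes were again Id3, Id2 and Id1, and neighbors were apart between Id4 and Lef1 alone.

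**Figure D1:**
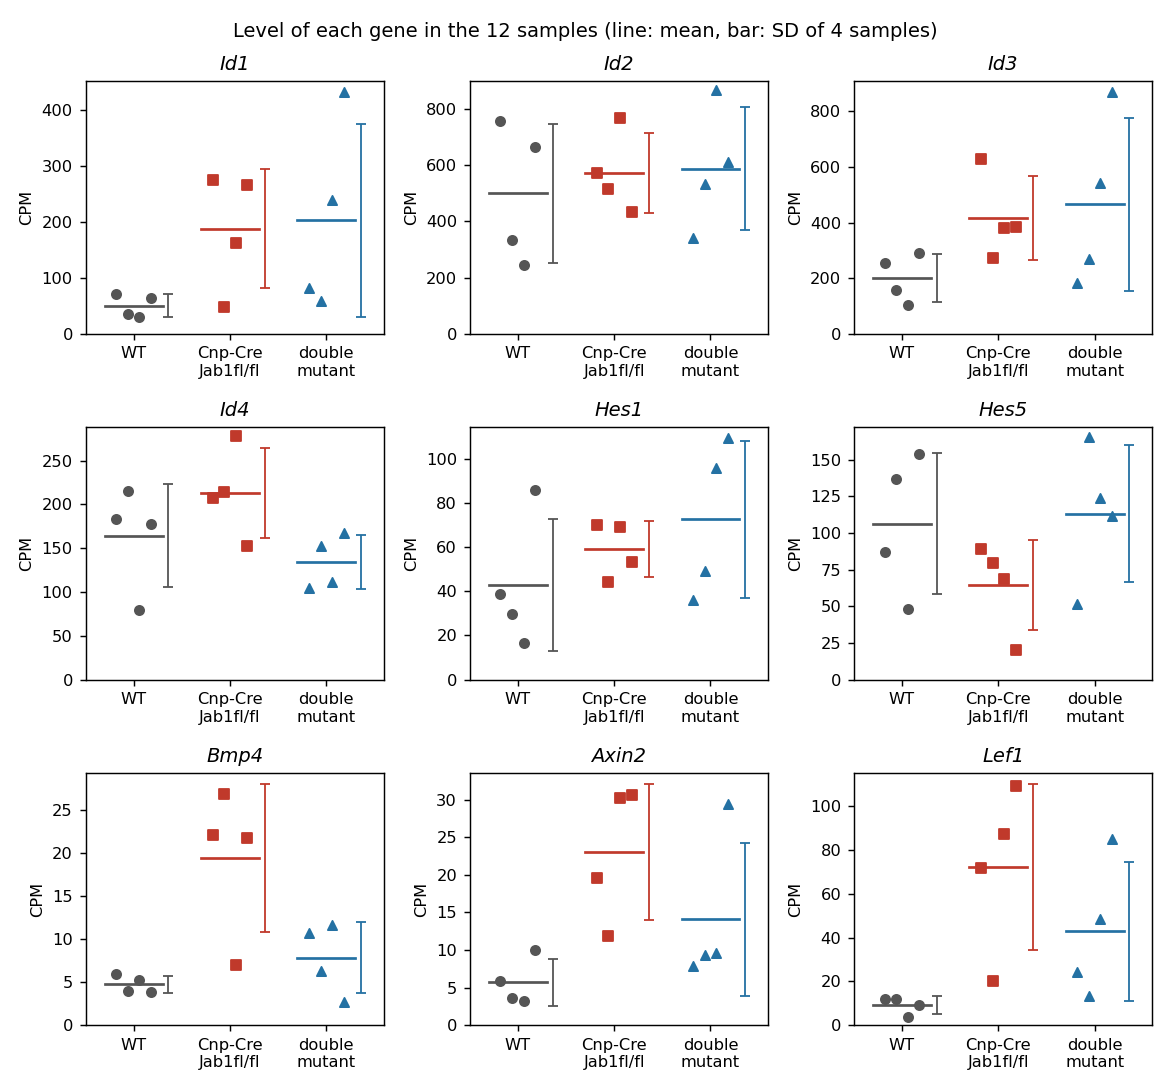
Level of each of the 9 genes in CPM (vertical axes, from 0) in the 4 samples of each genotype, with the mean as a line and the SD as a bar beside it. Bmp4, Axin2 and Lef1 are higher in all 4 Cnp-Cre Jab1fl/fl samples than in any WT sample, while the genotypes overlap for the other 6 genes.

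To determine whether loss of Jab1 was accompanied by a change in these genes, Cnp-Cre Jab1fl/fl samples were compared with WT. Lef1, Bmp4, Axin2 and Id1 were upregulated at an adjusted p below 0.05, which is 4 of 9 genes, where 7.64% of all genes tested were called and 5.19% were called as higher. None was called as lower, where 2.46% of all genes were. The median log2 fold change of the 9 genes was 1.05, against 0.02 for all 17716 genes, and 8 of 9 were above 0, against 51.0% of all genes. Samples of both genotypes did not overlap for 3 of the 9 genes, all higher in mutants, a pattern that 9.9% of all genes showed. None was apart and lower, as 7.24% of all genes were. The 9 genes were chosen with earlier results of these data known, so these contrasts with all genes describe them and are not a test. Id3, Id2, Id4, Hes1 and Hes5 did not pass the test. Before adjustment 5 of the 9 genes had a p below 0.05, as did 22.5% of all genes (edgeR). In bulk samples of this kind, fewer cells of a type and less RNA per cell cannot be told apart.

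Bmp4, the BMP ligand of the list, lies on the minus strand of chromosome 14 (14:46383520-46390669, GRCm38) with 4 annotated exons. WT samples had 5.94, 4.01, 5.27 and 3.87 CPM in replicates 1, 3, 5 and 6. Cnp-Cre Jab1fl/fl samples had 22.1, 27.0, 7.04 and 21.9 CPM in replicates 1 to 4. All 4 mutant samples were above the highest WT sample, although replicate 3 was only just above it. The means were 4.77 ± 0.999 CPM and 19.5 ± 8.63 CPM (SD, n = 4), a 4.09-fold difference (log2 fold change 2.03, with a standard error, SE, of 0.50 and an adjusted p of 0.0334 by edgeR). The call was kept in the fit without Cnp-Cre Jab1fl/fl replicate 3 and lost without any one of the other samples, with an adjusted p of 0.0208 to 0.0860 and a log2 fold change of 1.83 to 2.31 over these 8 edgeR fits. Bmp4 is also transcribed as precursors commit to the oligodendrocyte fate, and the summed level of 8 premyelinating markers overlapped between genotypes, at 588 to 841 CPM in WT and 409 to 1127 CPM in mutants. The mutant sample with the most Bmp4, replicate 2, had 596 CPM of these markers, and its 1096 CPM of endothelial markers were close to the WT range of 463 to 1078 CPM. The part of premyelinating cells in Bmp4 levels was not tested, and that of endothelial cells not beyond the covariate fit given below.

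Id genes are targets of BMP signaling. Id1 (2:152736251-152737410, plus strand, 1 exon after merging transcripts) had 70.4, 35.5, 29.6 and 64.8 CPM in WT replicates 1, 3, 5 and 6. It had 275, 47.5, 163 and 267 CPM in Cnp-Cre Jab1fl/fl replicates 1 to 4. Thus 3 mutant samples were above every WT sample, and replicate 2 lay inside the WT range. The difference was 3.76-fold, from 50.05 ± 20.5 to 188 ± 107 CPM (SD, n = 4; log2 fold change 1.91, SE 0.51, adjusted p = 0.0455 by edgeR). The call was kept without replicate 2 of Cnp-Cre Jab1fl/fl and lost when any other sample was left out, with an adjusted p of 0.00660 to 0.127 and a log2 fold change of 1.67 to 2.22 (edgeR). Replicate 2 was also the mutant sample with the fewest endothelial markers.

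Id3 (4:136143497-136145755, plus strand), which acts like Id1 and is often induced with it, had 255, 158, 102 and 289.8 CPM in WT and 629, 273, 380.3 and 386 CPM in Cnp-Cre Jab1fl/fl samples. Again 3 of 4 mutant samples were above the highest WT sample, and replicate 2 was not. The log2 fold change was 1.05 (SE 0.39, adjusted p = 0.134 by edgeR), which did not pass over all genes. Its unadjusted p was 0.0205, where 22.5% of all genes had one below 0.05 (edgeR). DESeq2 called Id3 with an adjusted p of 0.0398, the lowest of 0.0398 to 0.287 over 7 fits with other settings, with 0.0853 to 0.296 when single samples were left out.

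Neither Id2 nor Id4 passed the test. Id2 (12:25093799-25097140, minus strand) had 244 to 754 CPM in WT and 434 to 768 CPM in mutants, where the log2 fold change was 0.20 (SE 0.39, adjusted p = 0.823 by edgeR). Its 2 highest WT samples, replicates 1 and 6, were within the range of the mutants. Id4 (13:48261228-48266026, plus strand), the family member best known from neural precursors, had 79.3 to 215 CPM in WT and 152.9 to 279 CPM in mutants (log2 fold change 0.38, SE 0.35, adjusted p = 0.579 by edgeR). The standard errors allow changes of either sign for Id2, so a small difference was not detectable with 4 samples.

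Among the Notch effectors, neither Hes gene passed the test. Hes5 (4:154960923-154962371, plus strand), a repressor that delays myelin gene expression, had 86.9, 137, 48.1 and 154 CPM in WT replicates 1, 3, 5 and 6. Its levels in Cnp-Cre Jab1fl/fl replicates 1 to 4 were 89.4, 79.4, 68.7 and 20.1 CPM. It was the only one of the 9 genes with a fitted change below 0, but only replicate 4 was below the WT range (log2 fold change -0.72, SE 0.48, adjusted p = 0.416 by edgeR). Hes1 (16:30064384-30067796, plus strand), a repressor shared by many progenitors, had 38.7, 29.9, 16.8 and 85.8 CPM in WT and 70.0, 44.1, 69.2 and 53.1 CPM in mutants. All 4 mutant samples lay inside the WT range, whose top was set by replicate 6 (log2 fold change 0.47, SE 0.44, adjusted p = 0.597 by edgeR). Without WT replicate 6 the log2 fold change of Hes1 was 1.05 (unadjusted p = 0.0197, adjusted p = 0.150 by edgeR).

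Both Wnt targets were upregulated. Lef1 (3:131110471-131224356, plus strand), the HMG-box factor that pairs with β-catenin and is itself induced by Wnt signaling, had 12.2, 11.999, 3.77 and 9.37 CPM in WT replicates 1, 3, 5 and 6. Cnp-Cre Jab1fl/fl replicates 1 to 4 had 71.6, 20.3, 87.0 and 109 CPM. All 4 mutant samples were above every WT sample, and replicate 2 was again the lowest. The mean rose from 9.35 ± 3.94 to 72.0 ± 37.8 CPM (SD, n = 4), a 7.70-fold difference and the largest of the 9 genes (log2 fold change 2.95, SE 0.54, adjusted p = 0.00935 by edgeR). Lef1 stayed called without any one of the 8 samples, with an adjusted p of 0.00219 to 0.0291 (edgeR). Its exons share 1208 bases with the antisense gene Gm43352, and since the sources used here do not state whether reads were counted by strand, reads of both genes cannot be told apart. Gm43352 had 1499 counts in all 12 samples together and Lef1 43586. Id4, Hes5, Bmp4 and Axin2 share 82 to 433 exon bases with antisense genes that had at most 1084 counts.

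Axin2 (11:108920349-108950783, plus strand), a scaffold of the β-catenin destruction complex and a negative feedback target of the pathway, had 5.89, 3.64, 3.27 and 10.001 CPM in WT. In Cnp-Cre Jab1fl/fl replicates 1 to 4 it had 19.5, 11.9, 30.2 and 30.6 CPM. The lowest mutant sample, replicate 2, was just above the highest WT sample, replicate 6. From 5.70 ± 3.09 to 23.1 ± 9.04 CPM (SD, n = 4), the difference was 4.04-fold (log2 fold change 2.02, SE 0.51, adjusted p = 0.0369 by edgeR). The call was kept without WT replicate 6 and without Cnp-Cre Jab1fl/fl replicate 2, and lost without any other sample, over an adjusted p of 0.0202 to 0.0994 and a log2 fold change of 1.82 to 2.43 (edgeR). Over 7 fits with other settings Lef1 was called in 6, and Axin2, Bmp4 and Id1 in 4 each, namely those with DESeq2, limma-voom, upper-quartile factors and a mean of at least 10 CPM.

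**Figure D2:**
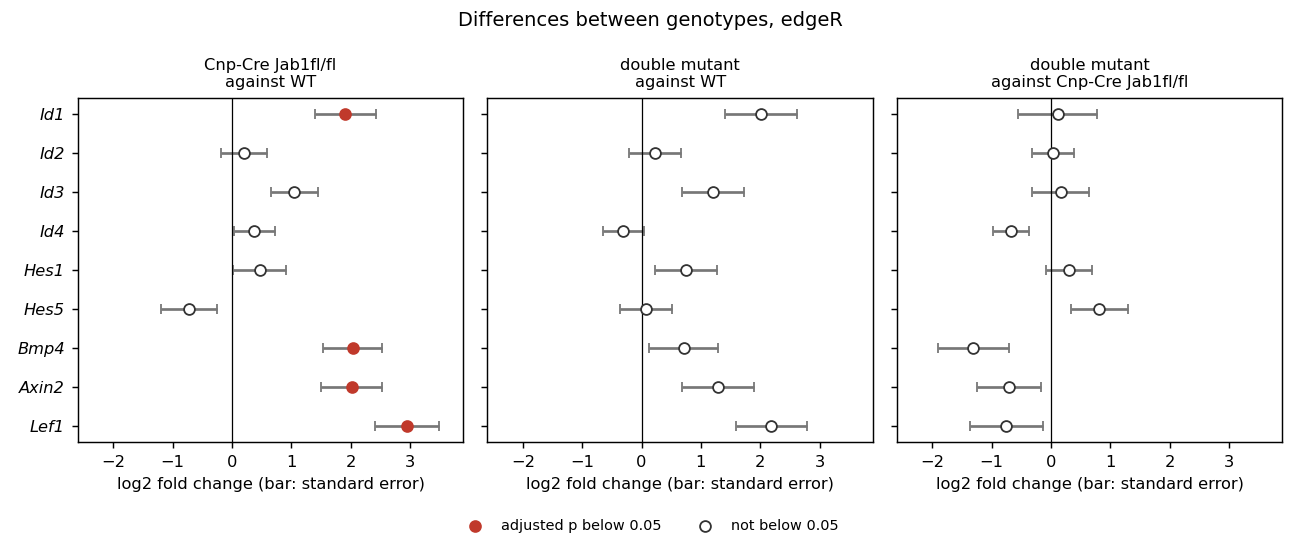
Log2 fold change of the 9 genes (horizontal axes, edgeR, bar: standard error) in the 3 comparisons of genotypes, with filled points at an adjusted p below 0.05. Lef1, Bmp4, Axin2 and Id1 are filled in Cnp-Cre Jab1fl/fl against WT, and no point is filled in either comparison of double mutants.

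Other genes of the same pathways were read from 11 lists. Together they held 110 genes, of which 95 were tested, and 4 were called as higher and 6 as lower in Cnp-Cre Jab1fl/fl than in WT (edgeR). These 10 of 95 stand beside 7.64% of all genes, and the lists too were chosen with earlier results of these data known. DESeq2 called 21 of the 95 and 2689 of all 17716 genes, and limma-voom 19 and 1921. The count was 6 with all 12 samples in one fit, 7 of 107 genes without a filter, 0 with endothelial or choroid plexus markers as a covariate, and 3 (without WT replicate 5 or Cnp-Cre Jab1fl/fl replicate 1) to 15 (without Cnp-Cre Jab1fl/fl replicate 2) when single samples were left out. None of the ligand, SMAD and antagonist genes of the BMP pathway was called: 0 of 6 tested ligands other than Bmp4, 0 of 6 Smads and 0 of 7 antagonists, with unadjusted p below 0.05 for 0, 1 and 2 genes. Among all genes 22.5% had an unadjusted p below 0.05 in this comparison (edgeR). Of 8 BMP receptors 1 was called, Acvrl1, which encodes ALK1, a receptor best known from endothelium. Acvrl1 rose from 16.7 ± 8.44 to 86.7 ± 54.5 CPM (SD, n = 4; log2 fold change 2.38, SE 0.55, adjusted p = 0.0256 by edgeR). The mutant samples spanned 21.02 to 147 CPM and overlapped the WT range of 12.4 to 29.3 CPM.

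The Notch list held 12 genes, namely receptors, ligands, and the nuclear factors Rbpj, Maml1, Maml2 and Maml3. Of these 12 genes 2 were called, both higher. They were Notch4, a receptor known from vascular endothelium (log2 fold change 2.13, SE 0.50, adjusted p = 0.0282 by edgeR), and the ligand Jag2 (2.52, SE 0.57, adjusted p = 0.0241 by edgeR). Notch4 went from 9.36 ± 4.88 to 40.9 ± 19.1 CPM and Jag2 from 6.15 ± 3.37 to 35.2 ± 21.3 CPM (SD, n = 4). The 5 tested targets of Notch other than the members, among them the Hey genes, had a median log2 fold change of -0.33, with 0 calls and 0 genes at an unadjusted p below 0.05 (edgeR). Of 9 tested feedback targets of Wnt signaling other than Axin2 and Lef1, 0 were called by edgeR, with a median of 0.41. An unadjusted p below 0.05 was found for 2 of the 9, where 22.5% of all genes had one (edgeR). These 2 went in opposite directions, Nkd1 lower (log2 fold change -1.12) and Apcdd1 higher (1.57). Among 22 genes of Wnt transduction 1 was called, Tcf7, a TCF/LEF family factor that T cells also use (log2 fold change 2.55, SE 0.59, adjusted p = 0.0250 by edgeR), from 3.57 ± 1.79 to 21.01 ± 12.6 CPM (SD, n = 4). The median of that list was -0.58, below the 0.02 of all genes.

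Factors that Id proteins act on, and regulators of differentiation, were read in the same way. Of 6 bHLH partners of Id proteins 1 was called, Olig1, which promotes myelination and fell from 791 ± 285 CPM to 177 ± 90.6 CPM (SD, n = 4; log2 fold change -2.16, SE 0.44, adjusted p = 0.0146 by edgeR). Among 6 further inhibitors of differentiation 1 was called, the receptor Gpr37, which restrains late differentiation and was lower in mutants (log2 fold change -2.90, SE 0.52, adjusted p = 0.00867 by edgeR). All 8 activators of differentiation had a fold change below 0, with a median of -1.70, and 4 were called: Myrf (-2.74), Sox10 (-2.72), Nkx6-2 (-1.82) and Sox8 (-1.59), with adjusted p-values of 0.0306, 0.0271, 0.0375 and 0.00922 (edgeR). Myrf and Sox10 are master regulators of myelin genes. Mature oligodendrocyte markers other than Mbp moved the same way, with 8 of 12 called as lower, and their part in these differences was not tested. Mbp was at a log2 fold change of 0.27 (adjusted p = 0.811 by edgeR).

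**Figure D3:**
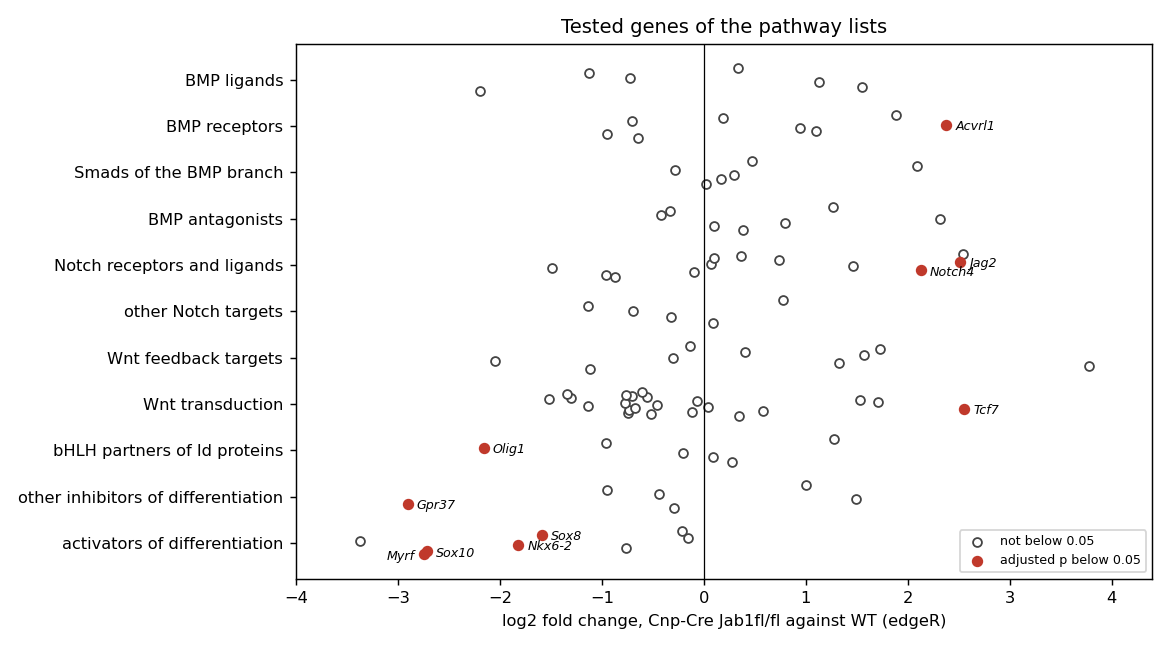
Log2 fold change in Cnp-Cre Jab1fl/fl against WT (horizontal axis, edgeR) of the 95 tested genes of 11 pathway lists, each point 1 gene, with the named filled points at an adjusted p below 0.05. The 8 activators of differentiation lie left of 0, and Acvrl1, Notch4, Jag2 and Tcf7 are the 4 filled points on the right.

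Levels of the called genes were set beside those of cells that the sort should leave out. Of 14 endothelial markers 8 were called as higher in Cnp-Cre Jab1fl/fl, and their summed level was 1078, 854, 463 and 953 CPM in WT and 7875, 1096, 3546 and 5902 CPM in mutants. None of the 14 was at or under 3 counts throughout, and the lowest, Cdh5, averaged 17.0 CPM over the 12 samples. Id1 followed this sum: per 1000 CPM of endothelial markers there were 41.5 to 67.9 CPM of Id1 in WT, 34.9 to 45.9 CPM in Cnp-Cre Jab1fl/fl and 49.0 to 95.1 CPM in double mutants. Lef1 gave 8.15 to 14.1 CPM per 1000 in WT and 9.09 to 24.5 CPM per 1000 in Cnp-Cre Jab1fl/fl, with 3 of 4 mutant samples above the WT range. Axin2 gave 4.27 to 10.5 CPM per 1000 in WT and 2.48 to 10.8 CPM per 1000 in Cnp-Cre Jab1fl/fl, with overlapping samples. For Bmp4 the values were 4.06 to 11.4 CPM per 1000 in WT and 2.81, 24.6, 1.98 and 3.70 CPM per 1000 in Cnp-Cre Jab1fl/fl replicates 1 to 4. Per endothelial marker, Bmp4 was thus below every WT sample in 3 of 4 mutant samples, and replicate 2 alone was above them. In CPM, Bmp4 was above every WT sample in all 4 mutant samples, so the low ratios come from the larger endothelial sum they are divided by.

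With the logarithm of the summed endothelial level as a covariate in the edgeR fit, an alternative chosen after seeing the data, 0 of the 9 genes and 45 of all genes were called, with 4 and 1354 without it. The log2 fold change of Id1 was then -0.38 (adjusted p = 0.926) and that of Id3 0.03, while Lef1 was at 0.94 (adjusted p = 0.804) and Axin2 at 0.98 (adjusted p = 0.860). Bmp4 stayed at 2.23 (SE 0.72), with an adjusted p of 0.425 and an unadjusted p of 0.0106. With choroid plexus markers in their place, Bmp4 was at 2.52 (adjusted p = 0.554), Lef1 at 1.27 (adjusted p = 0.967) and 0 genes of all were called. Summed levels of both marker lists did not overlap between these genotypes, so genotype and marker level cannot be fully told apart.

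In replicate 2 of Cnp-Cre Jab1fl/fl, whose 1096 CPM of endothelial markers exceeded the highest WT sample by little, Lef1 was at 20.3 CPM against at most 12.2 CPM in WT, Axin2 at 11.9 against at most 10.001 CPM, Bmp4 at 27.0 against at most 5.94 CPM, and Id1 at 47.5 against at most 70.4 CPM. Its mural markers were at 1014 CPM and its choroid plexus markers at 6531 CPM, both above the WT ranges of 282 to 485 CPM and 302 to 4129 CPM. The part of these cell types in the differences of Lef1, Axin2 and Bmp4 was not tested beyond the fits given here.

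**Figure D4:**
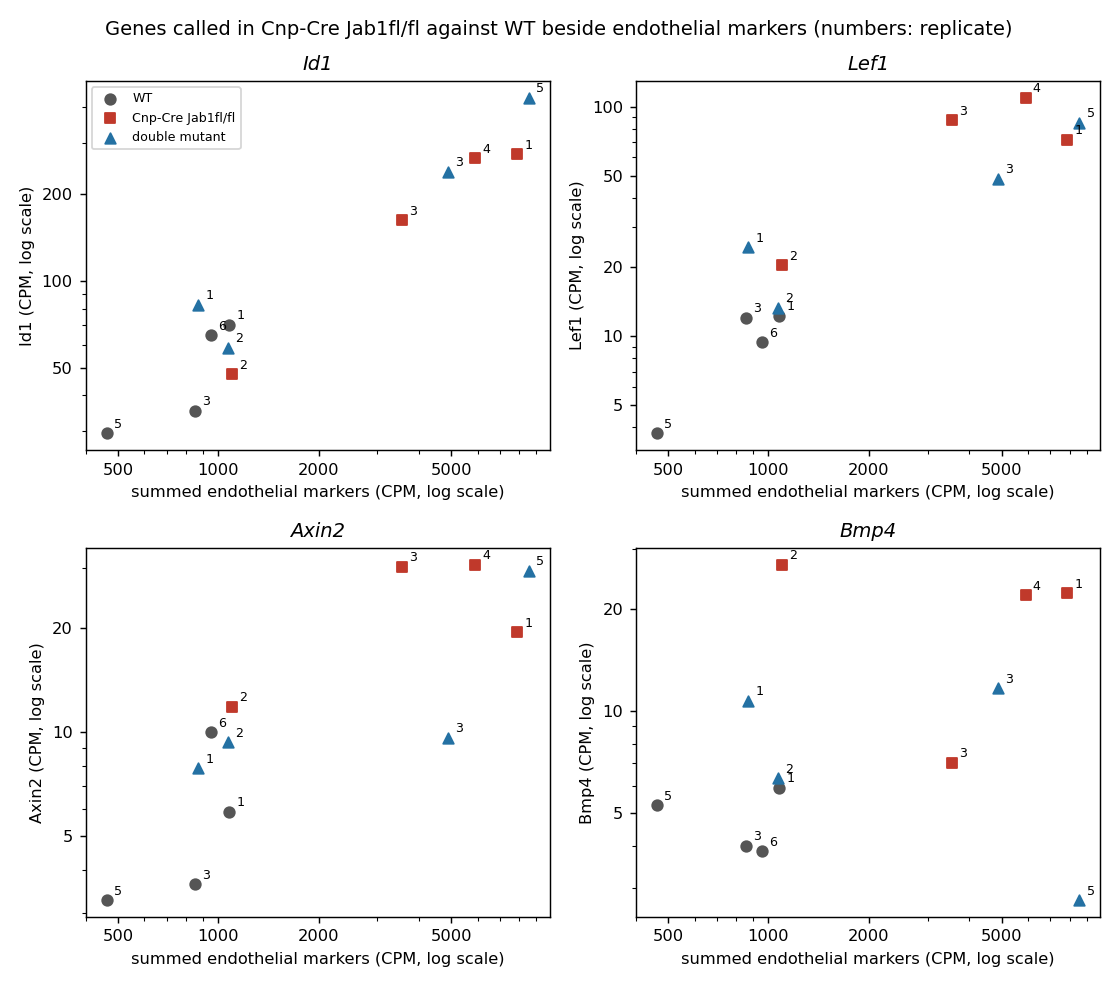
Level of Id1, Lef1, Axin2 and Bmp4 (vertical log axes, CPM) against the summed level of 14 endothelial markers (horizontal log axes, CPM) in the 12 samples, with symbols for genotypes and numbers for replicates. Id1 and Lef1 increase along the axis, whereas for Bmp4 the sample at 27.0 CPM sits near the WT samples at 1096 CPM of endothelial markers.

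Genes with the pattern most like each of the 9 were named by the root mean square distance between standardized log2(CPM + 1) values over the 12 samples, among the 17006 genes averaging 1 CPM or more, where 0 means an identical shape. The nearest to Id1 were Ly6c1 (0.14), Ly6a (0.17) and Ly6c2 (0.18), and 5 of its 50 nearest genes were endothelial markers, of 14 compared. For Lef1 these were Cxcl12 (0.18), Gm44291 (0.18) and Ahnak (0.19), with 3 endothelial markers (Abcb1a, Flt1, Cdh5) and the B cell marker Ebf1 among the 50. Near Id3 were Rgcc (0.24), Itm2a (0.28) and Pglyrp1 (0.29), again with 3 endothelial markers. Axin2 was nearest to Tshz2 (0.22), Gm15266 (0.31) and Csrp2 (0.32), with 1 endothelial marker. After subtraction of the mean of each genotype, the number of endothelial markers among the 50 nearest was 6 for Id1, 3 for Lef1, 3 for Id3 and 0 for Axin2.

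The remaining genes had no endothelial marker among their 50 nearest. Hes5 was nearest to Mapk10 (0.34), Gm26512 (0.36) and Plpp3 (0.38), and 4 of its 50 nearest were astrocyte markers of 12 compared (Slc1a3, Aldh1l1, Aldoc, Gja1). The sample with the least Hes5, Cnp-Cre Jab1fl/fl replicate 4 at 20.1 CPM, also had the least summed astrocyte markers, 4512 CPM, where the 12 samples ranged up to 16514 CPM. Hes1 was nearest to Zfp36l1 (0.35), Mtap (0.42) and Id3 (0.42), with 3 choroid plexus markers of 8 among the 50 (Kcnj13, Folr1, Ttr). WT replicate 5, lowest in Hes1 at 16.8 CPM and in Id2 at 244 CPM, had 302 CPM of choroid plexus markers, the lowest of all samples. Id2 was nearest to Mgll (0.38), Fabp7 (0.44) and Scrg1 (0.48), with 1 choroid plexus marker, Otx2. Id4 (Map3k14 and Gm38357, at 0.52 and 0.54) and Bmp4 (4930527F14Rik, Gm49494 and Cebpb, at 0.43 to 0.56) had 0 cell type markers among the 50. These distances describe 12 samples that share their libraries, and carry no test.

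**Figure D5:**
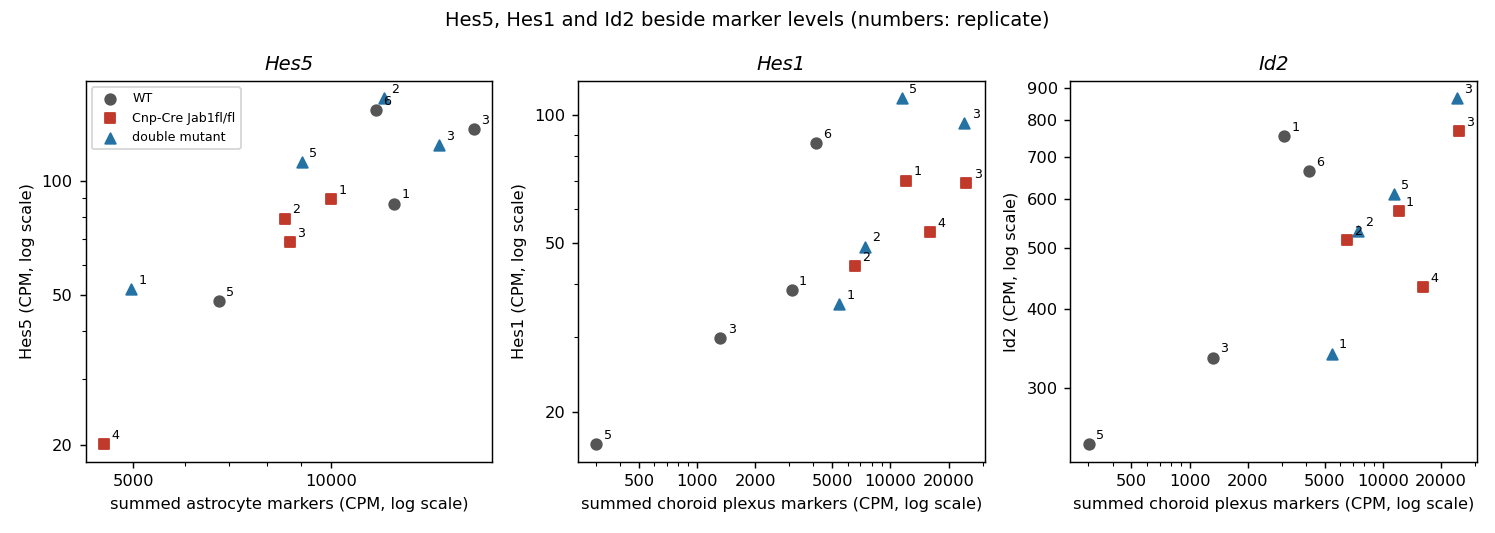
Level of Hes5 against the summed level of 12 astrocyte markers, and of Hes1 and Id2 against 8 choroid plexus markers (all log axes, CPM) in the 12 samples, with symbols for genotypes and numbers for replicates. Cnp-Cre Jab1fl/fl replicate 4 is lowest on both axes for Hes5, and WT replicate 5 is lowest on both axes for Hes1 and Id2.

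Double mutants were then compared with WT, to see which of these genes differed when p21 was missing as well. This comparison shares its WT samples with the one of Cnp-Cre Jab1fl/fl. At an adjusted p below 0.05, 0 of the 9 genes were called by edgeR, where 0.192% of all genes were, and 3 had an unadjusted p below 0.05 (Id1, Id3 and Lef1), where 12.4% of all genes did. Of all 17716 genes DESeq2 called 862 and limma-voom 47. Of the 9 genes DESeq2 called 2, Lef1 (adjusted p = 0.00634) and Id1 (adjusted p = 0.0123), and limma-voom 0. Over 7 fits with other settings their adjusted p ranged from 0.00634 to 0.255 and from 0.0123 to 0.292. The median log2 fold change was 0.75 and 8 of 9 genes were above 0, while all genes had a median of 0.00. Only Lef1 had samples apart from WT, as did 4.52% of all genes in this direction, and none was lower and apart, where 3.58% were. By call, 0.175% of all genes were higher and 0.0169% lower. The limit from the choice of the 9 genes holds for these contrasts too.

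Lef1 had 24.4, 13.3, 48.5 and 84.9 CPM in double-mutant replicates 1, 2, 3 and 5. All 4 were above the WT maximum of 12.2 CPM, replicate 2 by a small margin (log2 fold change 2.19, SE 0.59, adjusted p = 0.180 by edgeR). Id1 had 82.7, 58.5, 239 and 432 CPM, with replicate 2 inside the WT range (log2 fold change 2.01, SE 0.61, adjusted p = 0.215 by edgeR). For Id3 the samples had 183, 269, 541 and 871 CPM, of which replicates 3 and 5 were above the WT range (log2 fold change 1.20, SE 0.52, adjusted p = 0.373 by edgeR). In these 3 genes replicates 3 and 5 were the highest double mutants. The same samples had the most endothelial markers, 4878 and 8558 CPM, against 870.1 and 1069 CPM in replicates 1 and 2, and what they contributed was not tested beyond the covariate fit. In that fit Id1 was at 0.32, Id3 at -0.07 and Lef1 at 0.84 (adjusted p = 0.923 by edgeR).

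Axin2 had 7.89, 9.38, 9.66 and 29.3 CPM in double mutants, and only replicate 5 exceeded the WT range (log2 fold change 1.29, SE 0.60, adjusted p = 0.422 by edgeR). Bmp4 had 10.7, 6.33, 11.7 and 2.77 CPM, so that 3 samples were above the WT range and replicate 5 below it (log2 fold change 0.71, SE 0.58, adjusted p = 0.658 by edgeR). Replicate 5 was thus the double mutant with the most Axin2 and the least Bmp4. Hes1 (log2 fold change 0.75), Id2 (0.23), Hes5 (0.08) and Id4 (-0.31) had adjusted p-values of 0.599 to 0.963 in edgeR, and all overlapped with WT. Hes1 had 35.9 to 109.5 CPM, Id2 339.9 to 867 CPM, Hes5 51.6 to 165 CPM and Id4 104 to 168 CPM in double mutants. Without double-mutant replicate 3, the sample with the microglia markers, Lef1 was at 2.13 (adjusted p = 0.309), Id1 at 1.93 (adjusted p = 0.385) and Axin2 at 1.44 (adjusted p = 0.511), and 0 of the 9 genes were called. Without replicate 5, Axin2 was at 0.64 (adjusted p = 0.820), Id1 at 1.33 (adjusted p = 0.463) and Lef1 at 1.61 (adjusted p = 0.385 by edgeR).

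Set directly against Cnp-Cre Jab1fl/fl, double mutants showed 0 called genes among the 9 and 0.0% among all genes in edgeR, where 5.0% of all genes and 1 of the 9 had an unadjusted p below 0.05. DESeq2 called 87 genes and limma-voom 1, none of the 9. Fold changes were above 0 for 5 genes and below 0 for 4, with a median of 0.04, and none of the 9 had samples apart, where 1.22% of all genes were apart and higher and 1.99% apart and lower. Bmp4 had the largest difference, from 19.5 ± 8.63 to 7.87 ± 4.11 CPM (SD, n = 4; log2 fold change -1.31, SE 0.59, unadjusted p = 0.0504, adjusted p = 0.968 by edgeR). Double-mutant replicates 2 and 5 were below every Cnp-Cre Jab1fl/fl sample, while replicates 1 and 3 lay between replicate 3 of Cnp-Cre Jab1fl/fl and its other samples. Id4, at 213 ± 51.5 CPM against 134 ± 30.8 CPM (SD, n = 4), was the gene with the unadjusted p below 0.05 (log2 fold change -0.67, SE 0.30, unadjusted p = 0.0486, adjusted p = 0.968 by edgeR). Lef1 differed by -0.75 (SE 0.61) and Axin2 by -0.71 (SE 0.54), Hes5 by 0.81 (SE 0.48), and Hes1, Id3, Id1 and Id2 by 0.04 to 0.30. For Lef1, values side by side were 9.35 ± 3.94 CPM in WT, 72.0 ± 37.8 CPM in Cnp-Cre Jab1fl/fl and 42.8 ± 31.7 CPM in double mutants (SD, n = 4). Axin2 was at 5.70 ± 3.09, 23.1 ± 9.04 and 14.1 ± 10.2 CPM in the same order, and Id1 at 50.05 ± 20.5, 188 ± 107 and 203 ± 172 CPM. No difference between both mutant genotypes passed the test for any of the 9 genes.

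The pathway lists gave 0 calls by edgeR in either comparison of double mutants. An unadjusted p below 0.05 was found for 12 of 95 genes against WT, where 12.4% of all genes had one. Against Cnp-Cre Jab1fl/fl it was found for 2 of the 95 pathway genes, where 5.0% of all genes had one (edgeR). DESeq2 called 4 and 0 of the 95 genes, beside 862 and 87 of all 17716 genes. The limma-voom fits called 0 of the 95 in both, beside 47 and 1 of all genes. Acvrl1 was at 86.7 ± 78.0 CPM (SD, n = 4) in double mutants, the mean level of Cnp-Cre Jab1fl/fl (log2 fold change against WT 2.37, adjusted p = 0.201 by edgeR). Notch4 was at 21.02 ± 10.7 CPM and Jag2 at 15.7 ± 14.0 CPM, with means between those of WT and Cnp-Cre Jab1fl/fl. Olig1, at 354 ± 180 CPM (SD, n = 4), also lay between both (log2 fold change -1.18 against WT with an adjusted p of 0.279, and against Cnp-Cre Jab1fl/fl 1.001 at an adjusted p of 0.968, by edgeR). All 8 activators of differentiation were below 0 against WT, with a median of -1.16, and 7 of 8 were above 0 against Cnp-Cre Jab1fl/fl, with a median of 0.42. These comparisons share samples, and none of the differences passed the test.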

How the data were processed

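RNA was amplified and made into libraries with a SMART-Seq v4 kit. Paired reads were trimmed with Trimmomatic 0.32, aligned to GRCm38 with STAR 2.5.3a and counted with featureCounts on the GENCODE basic annotation, per the labels and the methods of the study. The authors deposited 1 table of raw counts by gene symbol, not normalized or filtered. Whether strand was used and how reads with several matches were treated is not given in the sources used here. The 12 columns of the table were matched to samples by name, and 0 columns were left out.

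CPM values were computed with TMM factors over the 12 samples. Positions and exon lengths came from GENCODE M21, in which 98.2% of the symbols were matched. Genotypes were compared with the quasi-likelihood F test of edgeR 4.0.16 (R 4.3.3, limma 3.58.1) on the 8 samples of each comparison, over 17716 genes that reached 1 CPM in 4 or more samples of the 12. P-values were adjusted after Benjamini and Hochberg, at 0.05. "Called" means past this threshold, and a pattern is "apart" when all samples of one genotype lie above or below all of the other. Samples came from separate mice. Chi-square per degree of freedom was 170.04 or more for every pair of one genotype, beyond the sampling noise of 1 library counted again. That value cannot show separate animals, which rest on the methods of the study (2 brains per sample). Each sample counted as 1 replicate. Alternatives were DESeq2 1.42.0, upper-quartile factors, other filters, all 12 samples in one fit, a block on the replicate number, limma-voom and each sample left out. Fits with marker sums as covariates were added after seeing the data.

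The text names all 9 genes, every gene of a pathway list that was called where 4 or fewer were, the 3 nearest genes in pattern, and the lowest or highest genes of marker lists it turns on, apart from some that are not reported here. The 9 genes, the lists, the motifs and this rule were chosen with earlier results of these data known. Nkd1, Apcdd1 and Mbp were named outside this rule, for their direction. The edgeR step was tested on simulated counts. The reads carry no molecular identifiers, and fits cover the spread between samples.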

Additional observations from a re-analysis of the deposited data

Results flagged for a closer look

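Among the 27 groups of 4 samples formed by the 9 genes and 3 genotypes, 2 held a sample far from the others, by Dixon's criterion on the gap to the nearest sample, as a share of the group's range on the log2(CPM + 1) scale. Chance flags about 1 in 20 such groups. Bmp4 in Cnp-Cre Jab1fl/fl replicate 3 was at 7.04 CPM, while the other 3 samples were at 21.9 to 27.0 CPM, a gap of 0.838 of the range. This sample had the fewest mature oligodendrocyte markers of all 12, 9286 CPM, and the most choroid plexus markers, 24727 CPM. Axin2 in double-mutant replicate 5 was at 29.3 CPM and the other double mutants at 7.89 to 9.66 CPM, a gap of 0.852 of the range. The same sample had the most endothelial markers of all 12, 8558 CPM. The part of these markers in either value was not tested.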

How the results depend on the processing

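Of 459 fold changes of the 9 genes under an alternative, 386 kept their direction and side of the threshold, 37 lost a call, 3 gained one and 33 changed sign. Only the 4 calls of Cnp-Cre Jab1fl/fl against WT could be lost, so most of the 386 had no call to lose. Without single samples Lef1 stayed called in 8 of 8 fits, Axin2 in 2, and Bmp4 and Id1 in 1 each. Against WT in Cnp-Cre Jab1fl/fl, 4 of the 9 genes were called. All 12 samples in one fit and no filter each gave 1, the replicate block 0, and leaving out single samples 1 to 3. Genes called overall were 1354, or 2689 with DESeq2, 79 with the replicate block and 678 to 1863 without single samples (1863 without Cnp-Cre Jab1fl/fl replicate 2). Same-numbered samples did not deviate together (correlations -0.188 to 0.0833 over 8 pairs), so the numbers were not taken to pair samples. With endothelial or choroid plexus markers as covariates 0 of the 9 were called, and 45 and 0 genes overall. For double mutants against WT, DESeq2 called 2 of the 9. Genes called were 34, or 164 with all samples in one fit, 8 with the replicate block, 862 with DESeq2, 140 at a mean of at least 10 CPM, 21 without a filter, 21 and 0 with the covariates, and 1 to 274 without single samples (274 without double-mutant replicate 1). Against Cnp-Cre Jab1fl/fl there were 0, or 87 with DESeq2, 1 with limma-voom, 5 at a mean of at least 10 CPM and 0 to 2 without single samples. In Cnp-Cre Jab1fl/fl against WT with the replicate block, Lef1 was at 3.07 (adjusted p = 0.0805), Id1, Axin2 and Bmp4 had an adjusted p of 0.151, 0.151 and 0.534, Hes1 was at 1.28 (adjusted p = 0.297), and 0 of 95 pathway genes were called. No fit without 1 sample kept all 4 calls of that comparison, and the cause of these shifts was not tested.

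Signs changed mostly near 0. With endothelial markers as a covariate, Cnp-Cre Jab1fl/fl against WT gave -0.38 for Id1, -0.17 for Id2 and -0.27 for Hes1, and double mutants against WT -0.36 for Id2, -0.0719 for Id3, -0.23 for Hes1 and -0.16 for Hes5. With choroid plexus markers these were -0.92 for Id2, -0.41 for Id4 and -0.91 for Hes1, and -1.001 for Id2, -0.10 for Id3, -0.73 for Hes1 and -0.80 for Hes5. Without single samples, Id2 in Cnp-Cre Jab1fl/fl against WT reached -0.0296 to 0.47. In double mutants against WT, Id2 reached -0.0250 to 0.49 and Hes5 -0.15 to 0.34, and limma-voom gave -0.0407 for Id2. In double mutants against Cnp-Cre Jab1fl/fl, limma-voom gave -0.22 for Id1, -0.0740 for Id2 and -0.0932 for Id3, Id2 was at -0.00382 with upper-quartile factors and -0.0359 at a mean of at least 10 CPM, and Id3 was at -0.0205 with the replicate block. Without single samples these 3 genes reached -0.57 to 0.42, -0.19 to 0.24 and -0.33 to 0.44. None of these values was past the threshold.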
